A study of Mus musculus with 4 samples.

Results

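The genes described here are 30 genes of cell growth: 27 that serve the making of ribosomes and 3 of the polyamine and hypusine route, out of 31053 gene IDs in the deposited matrices. They were chosen by name from textbook roles, with earlier results of these data known. All 30 passed the filter on low counts, among 10224 genes tested between groups of cells. They span nucleolar chaperones and helicases (Ncl, Npm1, Nolc1, Ddx21, Gnl3), the box C/D particle (Fbl, Nop56, Nop58) and the box H/ACA particle (Dkc1, Gar1, Nhp2, Nop10). Small subunit assembly is represented by Rrp9, Rrp12, Wdr43, Utp20 and Pno1, and large subunit assembly by Bop1, Pes1, Wdr12, Rrs1, Nip7, Mrto4, Ebna1bp2, Nle1 and Nop16. Polr1b encodes the second largest subunit of RNA polymerase I, and Odc1, Srm and Eif5a make up the polyamine and hypusine group.

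Transcripts were counted by 5′ droplet sequencing in CD4 T cells sorted as CD45+CD3+CD4+ and 7AAD negative from the lamina propria of the small intestine, which is the layer under the gut lining. All 4 libraries came from wild-type C57Bl/6 mice and formed 1 group with no treatment, so groups of cells were compared within libraries. The labels do not tie each library to exactly 1 mouse, and the replicates are therefore called libraries. Libraries 1 to 4 held 28783972, 26407082, 23918884 and 26681150 UMIs (unique molecular identifiers, the counted transcripts), and 5402, 5626, 5324 and 5149 cells were kept.

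Ribosomes are assembled in the nucleolus, where RNA polymerase I makes the precursor of ribosomal RNA, box C/D and H/ACA particles modify it, and many assembly factors fold and trim it into the small and large subunits. Ornithine decarboxylase (Odc1) makes the polyamine putrescine, spermidine synthase (Srm) turns it into spermidine, and spermidine supplies the hypusine residue that activates the translation factor made from Eif5a. T cells turn these genes up when they are activated and grow, and the transcription factor Myc, which binds the letters CACGTG, is a known activator of many of them.

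Cells were put into gates by the first transcript they showed with at least 1 UMI. The order was Foxp3, the lineage factor of regulatory T cells; Xcl1, a chemokine; Il17a, the cytokine of Th17 cells; Ifng, the cytokine of Th1 cells; and Il2, a T cell growth factor. The Foxp3 gate held 1535 cells, the Xcl1 gate 6595, the Il17a gate 527, the Ifng gate 3688, the Il2 gate 1250, and 7906 cells with none of these transcripts made up the rest. A gate is a rule on counted transcripts and not a cell type: a cell that expresses a gene can lack its UMI, and 44.6% of the Xcl1 gate and 25.8% of the Il17a gate also held an Ifng UMI. Levels are given as CPM, UMIs of the summed cells of 1 library scaled to a common sum of 1000000, which compares groups for 1 gene and is not per transcript length.

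The T cell label was checked against marker genes. Cd3e averaged between 1689 and 1993 CPM in the 6 groups, while the B cell gene Ms4a1 and the epithelial genes Krt8, Krt20 and Fabp1 averaged at most 0.25 CPM in each. Epcam, an epithelial adhesion gene, averaged 91.8 ± 13.4 CPM (SD, n = 4 libraries) in the Foxp3 gate and 17.4 CPM in the rest. Summed over whole lists, B cell markers stood at 41.4 CPM (37.5 to 45.1 over libraries) in the Foxp3 gate and 13.8 CPM (10.3 to 18.7) in the rest, and at 5.58 to 9.32 CPM on average in the other gates. Plasma cell markers averaged 345 CPM (83.2 to 907) in the Foxp3 gate, 295 CPM in the Xcl1 gate, 93.2 CPM in the Il17a gate, 173 CPM in the Ifng gate, 382 CPM (62.9 to 1325) in the Il2 gate and 424 CPM (216 to 864) in the rest. The part of these transcripts in the results was not tested. CD8 and innate-like markers were Cd8a, Cd8b1, Trdc, Tcrg-C1, Zbtb16 and Klrb1c. Summed, they averaged 111 CPM (67.2 to 154) in the Il17a gate and 108 CPM (44.8 to 146) in the Ifng gate. Averages were 74.3 CPM in the Xcl1 gate, 50.1 CPM in the Il2 gate and 35.5 CPM in the Foxp3 gate. The rest averaged 79.8 CPM (44.6 to 103). Myeloid markers averaged 15.7 CPM in the Foxp3 gate, 36.5 CPM in the Xcl1 gate and 22.3 CPM in the rest. Their part was not tested. Between 34 and 55 barcodes were shared by each pair of libraries. Cells counted as cycling held at least 3 UMIs of 15 cell cycle genes, and their share and the median depth differed between gates: 34.9% and 4726 UMIs in the Il17a gate, 22.3% and 4594 UMIs in the Foxp3 gate, and 14.1% and 3641 UMIs in the rest. Cells without a cycling UMI held none of the 15 genes. This stricter rule also leaves out cells with 1 or 2 such UMIs and kept 7785 of 21501 cells.

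Sequence was examined because Myc UMIs, described further on, marked cells in which these genes were higher. RefSeq (GRCm38.p6) promoter windows, from 250 bases before to 50 after the start, were matched for 24 of the 30 genes. The letters CACGTG, which read the same on both strands, were found in 6 of the 24 (25.0%), namely Wdr43, Utp20, Pno1, Pes1, Nle1 and Eif5a, against 8.09% of the 27025 genes in that table. A match is a description of letters and not a bound site. The windows below are printed 5′ to 3′ with CACGTG in capitals: Wdr43, Eif5a and Pno1 hold it, while Gnl3 and Nop16, both higher in Myc UMI cells, and Odc1, which was not, hold none in this window.
Wdr43, chr17:71615965-71616264, plus strand: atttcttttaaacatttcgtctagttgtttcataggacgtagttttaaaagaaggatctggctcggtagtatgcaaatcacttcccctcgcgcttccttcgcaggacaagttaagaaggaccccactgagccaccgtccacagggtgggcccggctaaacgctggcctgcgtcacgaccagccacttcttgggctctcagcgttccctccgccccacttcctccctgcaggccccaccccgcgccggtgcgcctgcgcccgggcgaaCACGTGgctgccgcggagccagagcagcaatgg
Eif5a, chr11:69921337-69921636, minus strand: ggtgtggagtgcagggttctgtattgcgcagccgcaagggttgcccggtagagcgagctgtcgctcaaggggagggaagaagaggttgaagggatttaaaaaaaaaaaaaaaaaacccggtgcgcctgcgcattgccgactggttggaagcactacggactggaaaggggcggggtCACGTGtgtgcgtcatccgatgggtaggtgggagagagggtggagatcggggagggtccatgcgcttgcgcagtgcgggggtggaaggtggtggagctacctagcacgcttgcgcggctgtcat
Pno1, chr11:17211540-17211839, minus strand: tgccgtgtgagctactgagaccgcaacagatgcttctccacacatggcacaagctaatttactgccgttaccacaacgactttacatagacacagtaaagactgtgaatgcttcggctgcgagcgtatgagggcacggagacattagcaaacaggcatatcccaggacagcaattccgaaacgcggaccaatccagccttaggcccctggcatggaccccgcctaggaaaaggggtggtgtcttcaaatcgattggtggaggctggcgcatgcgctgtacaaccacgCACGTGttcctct
Gnl3, chr14:31019082-31019381, minus strand: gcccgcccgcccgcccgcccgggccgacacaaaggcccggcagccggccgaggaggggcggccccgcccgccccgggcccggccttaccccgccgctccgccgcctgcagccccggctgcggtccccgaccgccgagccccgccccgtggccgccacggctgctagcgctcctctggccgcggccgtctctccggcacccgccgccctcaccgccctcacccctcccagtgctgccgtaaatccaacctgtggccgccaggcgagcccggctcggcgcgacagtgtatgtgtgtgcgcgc
Nop16, chr13:54590025-54590324, minus strand: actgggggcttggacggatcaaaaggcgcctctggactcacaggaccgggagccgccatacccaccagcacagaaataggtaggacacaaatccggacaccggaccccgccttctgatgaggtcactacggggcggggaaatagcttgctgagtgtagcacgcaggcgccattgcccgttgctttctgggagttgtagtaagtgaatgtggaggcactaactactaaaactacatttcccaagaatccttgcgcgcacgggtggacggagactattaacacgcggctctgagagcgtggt
Odc1, chr12:17544623-17544922, plus strand: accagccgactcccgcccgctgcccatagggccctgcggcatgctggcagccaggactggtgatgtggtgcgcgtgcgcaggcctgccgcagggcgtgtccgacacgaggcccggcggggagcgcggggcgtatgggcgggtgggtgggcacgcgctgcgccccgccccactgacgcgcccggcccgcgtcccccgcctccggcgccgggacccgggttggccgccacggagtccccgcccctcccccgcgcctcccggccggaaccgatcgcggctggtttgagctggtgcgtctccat
In the Wdr43 window CACGTG begins 17 bases after the start, in the Eif5a window 74 bases before it, and in the Pno1 window 37 bases after it. Eif5a has several annotated starts, of which 3 windows held a match. The window chr11:69921226-69921525 overlaps the printed one, and both hold the same match.

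The 30 genes together made up 0.390% of all UMIs, and the 5 most abundant (Eif5a, Npm1, Odc1, Ncl and Nop10) held 72.5% of that. Their summed level was 3964 ± 208 CPM in the Foxp3 gate, 3989 ± 211 in the Xcl1 gate, 4318 ± 286 in the Il17a gate, 3665 ± 237 in the Ifng gate, 3757 ± 238 in the Il2 gate and 3865 ± 315 in the rest (SD, n = 4 libraries). Set against the rest of its own library, the sum was higher in 4 of 4 libraries in the Il17a gate and in the Xcl1 gate and lower in 4 of 4 in the Ifng gate, with no test of these sums. In libraries 1 to 4 the Xcl1 gate stood at 4300, 3898, 3930 and 3829 CPM, against 4276, 3883, 3786 and 3516 CPM in the rest. Among cells of 3000 to 6000 UMIs the Xcl1 gate was lower than its own rest in 3 of 4 libraries. The Il17a gate was higher in 3 of 4 there, and the Ifng gate lower in 4 of 4. Odc1 alone averaged 964 CPM in the Il17a gate, 810 CPM in the Foxp3 gate and 602 CPM in the rest. Among cells without a cycling UMI the Xcl1 gate was lower than its own rest in 4 of 4 libraries and the Il17a gate in 3 of 4, while the Ifng gate stayed lower in 4 of 4. Every library of the Il17a gate (4028 or more) stood above every library of the Ifng gate (3976 or less). That separation was lost among cells of 3000 to 6000 UMIs (3377 or more in the Il17a gate, 3882 or less in the Ifng gate) and among cells without a cycling UMI (3261 or more and 3786 or less). Among cells without a cycling UMI the rest had the highest mean, 3800 CPM, beside 3753 CPM in the Il17a gate. For single genes the spread over the 6 groups was narrow: the highest mean divided by the lowest was under 1.5 for 23 of 30, with a median of 1.27. It ran from 1.08 for Ncl, the nucleolar protein nucleolin, to 1.98 for Odc1, and was 1.97 for Nop16, a large subunit factor. The Il17a gate held the highest mean for 13 genes, the Xcl1 gate for 9, the Il2 gate for 6 and the Foxp3 gate for 2, while the Ifng gate and the Foxp3 gate each held the lowest for 11.

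**Figure D1:**
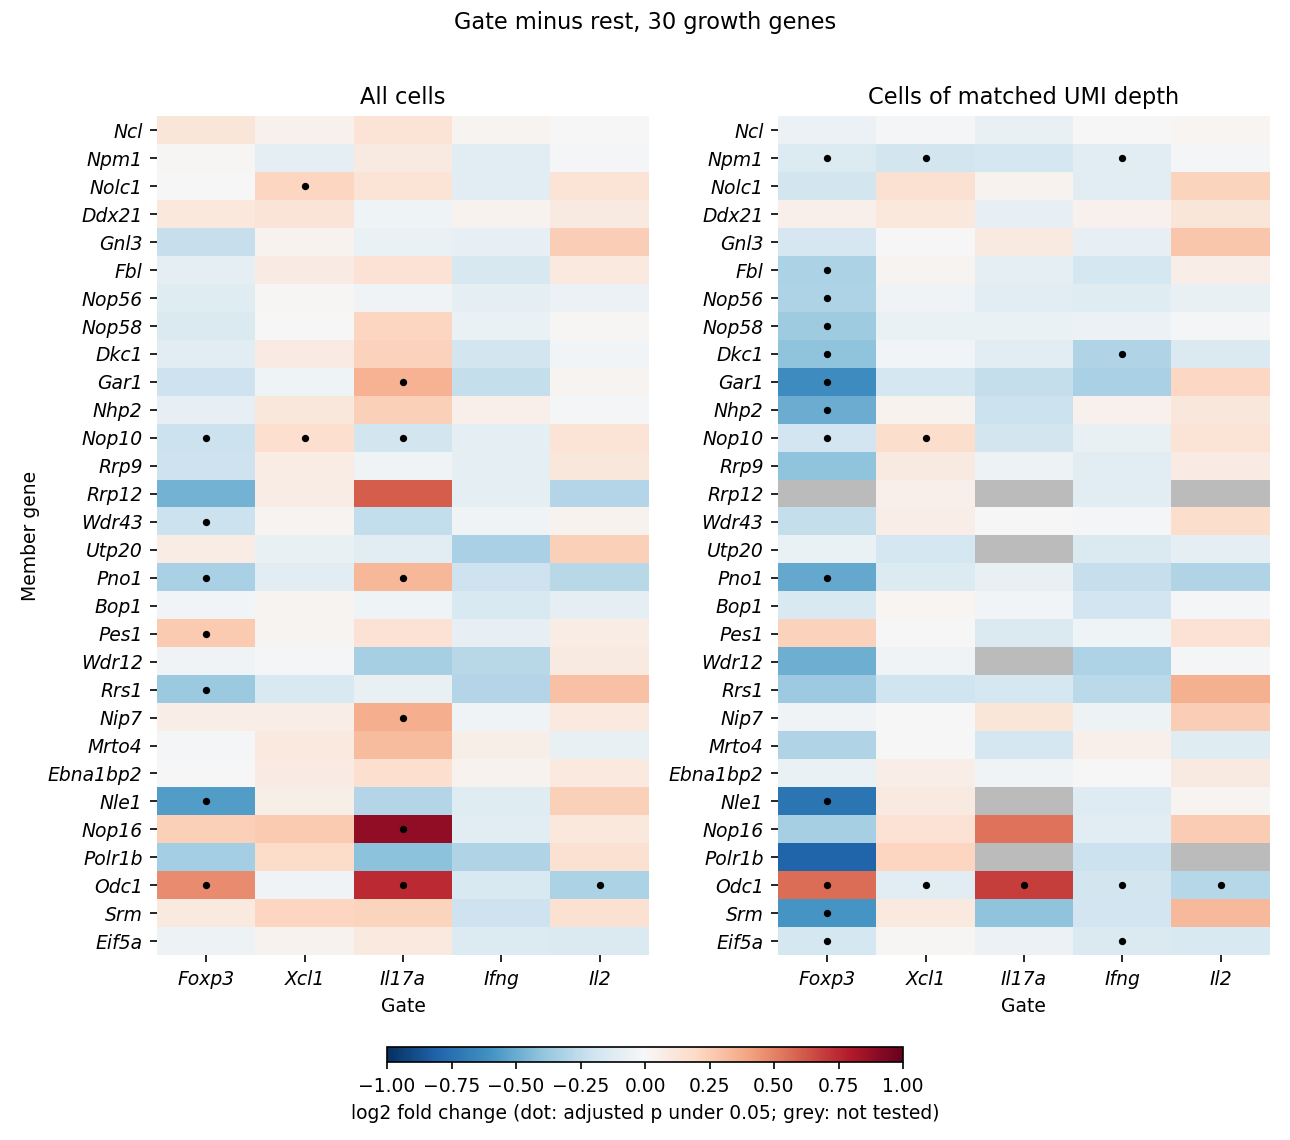
Log2 fold change of each of the 30 genes (down the page) in 5 gates against the rest, in all cells (left) and in cells of matched UMI depth (right); dots mark adjusted p under 0.05 and grey marks genes that were not tested. Odc1 carries a dot in 3 of the 5 gates in all cells and in all 5 at matched depth, with 12 dots below 0 in the Foxp3 column at matched depth.

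The genes with roles on the same particle stood at different levels. Between libraries the coefficient of variation (SD divided by mean) ran from 1.72% for Ddx21 to 17.5% for Polr1b and 30.9% for Odc1. Over all cells of libraries 1 to 4, Ddx21, an RNA helicase of the nucleolus, had 92.1, 91.0, 92.9 and 94.8 CPM. Nop56, a scaffold of the box C/D particle, had 80.0, 75.8, 72.6 and 76.0 CPM, and Nhp2 had 67.6, 66.3, 73.4 and 72.2 CPM. Rrp9, which binds the U3 small nucleolar RNA, had 19.1, 18.7, 21.7 and 23.0 CPM. Polr1b was the lowest of the 30, with 4.26, 4.35, 5.83 and 5.86 CPM. Srm had 23.3, 23.6, 27.7 and 28.1 CPM, higher in libraries 3 and 4, and Eif5a had 838, 810, 740 and 671 CPM, higher in libraries 1 and 2. Bop1, Ddx21, Dkc1, Ebna1bp2, Nop56, Polr1b, Rrp12, Rrp9, Utp20 and Wdr12 passed the threshold in no comparison between gates in all cells, and in neither the Myc nor the cycling comparison described further on.

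Odc1 had the largest ratio of highest to lowest group mean, 1.98, just above the 1.97 of Nop16. In libraries 1 to 4 Odc1 stood at 1332, 938, 820 and 767 CPM in the Il17a gate, against 879, 611, 488 and 429 CPM in the rest. It stood at 1029, 806, 818 and 587 CPM in the Foxp3 gate. Every library was higher in both gates than in its own rest, though the ranges of both gates overlapped that of the rest. The Il17a gate exceeded the rest by 0.74 ± 0.07 (log2 fold change ± SE) with an adjusted p of 3.89e-08, and the Foxp3 gate by 0.47 ± 0.07 with an adjusted p of 7.73e-06 (edgeR quasi-likelihood test, Benjamini-Hochberg over 10224 genes, library as a block). In the Il2 gate Odc1 was lower, with 742, 470, 375 and 364 CPM against those rest values, a log2 fold change of -0.31 ± 0.07 (edgeR adjusted p 0.014, lower in 4 of 4 libraries), and this call was lost without library 2 (adjusted p 0.128). In the Ifng gate it stood at 707, 503, 516 and 429 CPM, a log2 fold change of -0.16 that did not pass (edgeR adjusted p 0.254).

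Between gates, the Il17a gate exceeded the Ifng gate by 0.90 ± 0.08 on the log2 scale (edgeR adjusted p 1.44e-09), a value that passed in 17 of 17 settings and ranged from 0.83 to 1.12. Between libraries Odc1 varied more than any other of the 30 genes, with 616 ± 191 CPM over all cells and a coefficient of variation of 30.9%, against 1.72% for Ddx21, the least variable. Without the library block the Foxp3 difference was no longer called (edgeR adjusted p 0.255), nor was that of the Il17a gate (0.0521).

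**Figure D2:**
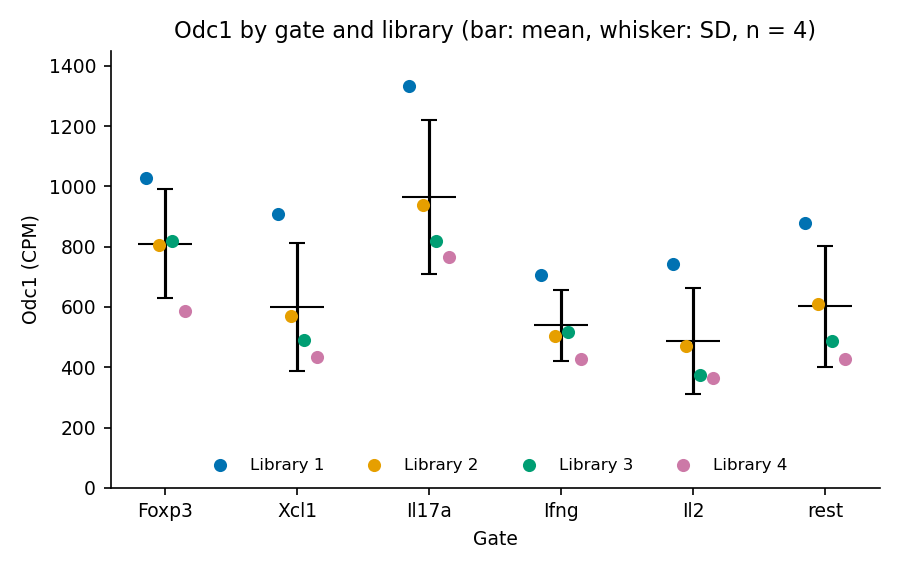
Odc1 in CPM (vertical axis) by gate, with 1 point per library, bars at the mean and whiskers for the SD over 4 libraries. The Il17a and Foxp3 gates have the highest means (964 and 810 CPM), above the rest (602 CPM), and library 1 is the highest point in every group.

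Each gate was set against the rest, and since the 5 comparisons share the same rest cells, their values stand side by side without being compared. In the Il17a gate 6 of 30 genes passed, against 22.9% of all genes tested: 5 higher (13.4% of all genes were higher) and 1 lower (9.54%). The median of the 30 was 0.13 on the log2 scale, beside -0.04 over all genes. Nop16 had 27.2, 36.3, 46.1 and 38.4 CPM in the Il17a gate, against 18.8, 17.3, 24.7 and 19.5 CPM in the rest, with no overlap between the groups. Its log2 fold change was 0.88 ± 0.20 (edgeR adjusted p 0.0013), higher in 4 of 4 libraries. Gar1, a structural protein of the H/ACA particle, rose by 0.35 ± 0.12, Nip7, a factor of large subunit assembly, by 0.36 ± 0.13, and Pno1, which holds the late small subunit precursor, by 0.33 ± 0.11 (edgeR adjusted p 0.0408, 0.0423 and 0.0356). Nop10, the smallest H/ACA protein, had 215, 224, 255 and 252 CPM in the Il17a gate, against 263, 266, 283 and 289 CPM in the rest, lower by -0.18 ± 0.05 (edgeR adjusted p 0.0117).

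These calls in the Il17a gate stood beside a large share of cycling cells. All 15 cell cycle genes were higher there, with a summed level of 1718 CPM (1499 to 2189), against 680 CPM (637 to 726) in the rest. Among cells without a cycling UMI 28 genes could be tested and 1 passed, Odc1 (0.68), against 3.32% of all genes. Nop16 was at -0.77, Pno1 at -0.60 and Gar1 at -0.19 there, and none of these 3 passed. Leaving out library 4 left Pno1 at 0.18 (edgeR adjusted p 0.427), Gar1 at 0.28 (0.219) and Nip7 at 0.30 (0.193); leaving out library 1 also ended all 3 calls and that of Nop10 (0.119). Library 3 was needed for Gar1 (0.0617) and Nip7 (0.0729), and library 2 for Pno1 (0.0759) and Nop10 (0.0868).

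In the Foxp3 gate 7 of 30 genes passed, against 29.9% of all genes tested: 2 higher (16.0% of all genes) and 5 lower (13.9%). The median of the 30 was -0.07, beside -0.01 over all genes. Besides Odc1, Pes1, the large subunit factor pescadillo, was higher by 0.26 ± 0.08 (edgeR adjusted p 0.0186, higher in 4 of 4 libraries). Nop10 had 220, 226, 239 and 254 CPM in the Foxp3 gate, against 263, 266, 283 and 289 CPM in the rest, lower by -0.22 ± 0.05 (edgeR adjusted p 0.0007) with no overlap. Pno1 had 36.6, 36.7, 32.2 and 29.3 CPM, against 49.6, 44.3, 41.1 and 35.0 CPM in the rest, lower in every library but with overlapping ranges; its log2 fold change was -0.32 ± 0.09 (edgeR adjusted p 0.0085).

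The other genes called lower in the Foxp3 gate were Nle1, which acts late in large subunit assembly (-0.56 ± 0.18, edgeR adjusted p 0.0224), Rrs1, which brings the 5S particle to the large subunit (-0.37 ± 0.14, 0.0393), and Wdr43, a small subunit processome protein (-0.22 ± 0.08, 0.0372). Rrs1 was lower in 3 of 4 libraries, with 17.7, 22.6, 16.8 and 11.8 CPM in the Foxp3 gate, against 22.4, 21.1, 26.3 and 22.3 CPM in the rest. Odc1 and Nop10 passed without each library in turn. Library 1 was needed for Pno1 (adjusted p without it 0.0949), Pes1 (0.0769), Nle1 (0.105), Rrs1 (0.0844) and Wdr43 (0.235), library 2 for Pes1 (0.112), library 3 for Nle1 (0.112), Rrs1 (0.231) and Wdr43 (0.229), and library 4 for Nle1 (0.0818) and Rrs1 (0.230).

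In the Xcl1 gate 2 of 30 genes passed, both higher, against 12.1% of all genes tested in either direction, 5.49% higher and 6.62% lower. Nop10 had 299, 290, 335 and 337 CPM in the Xcl1 gate, against 263, 266, 283 and 289 CPM in the rest, a log2 fold change of 0.17 ± 0.04 (edgeR adjusted p 0.0114) with no overlap. Nolc1, a chaperone of small nucleolar particles, had 57.5, 60.8, 63.4 and 61.6 CPM, against 53.6, 49.2, 53.6 and 48.9 CPM in the rest, 0.22 ± 0.06 (edgeR adjusted p 0.0119), again with no overlap. The median of the 30 was 0.05, beside 0.00 over all genes. The Nop10 call was lost without library 1 (edgeR adjusted p 0.0797) and library 3 (0.109), and the Nolc1 call without library 3 (0.0528) and library 4 (0.0568).

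In the Ifng gate 0 of 30 genes passed in edgeR and 0 in DESeq2, against 5.66% of all genes tested in edgeR (2.14% higher, 3.52% lower) and 5.71% in DESeq2. At an unadjusted p under 0.05, edgeR gave 8 lower and 0 higher of the 30, against 9.05% of all genes lower and 7.6% higher at that threshold, and 25 of 30 log2 fold changes were below 0, with a median of -0.11 beside 0.00 over all genes. In the Il2 gate Odc1 was the 1 gene that passed, against 4.19% of all genes (1.28% higher, 2.90% lower). The median of the 30 there was 0.08, and Rrs1 had 25.2, 31.4, 31.2 and 25.9 CPM in the Il2 gate, against 22.4, 21.1, 26.3 and 22.3 CPM in the rest, overlapping between the groups and not past the threshold.

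Set against the Ifng gate in place of the rest, the Il17a gate had 9 of 30 genes higher and 0 lower, against 13.9% of all genes higher and 9.98% lower (23.9% in either direction). These were Odc1, Nop16 (0.99), Gar1 (0.59), Pno1 (0.54), Nip7 (0.40), Fbl (0.30), the methyltransferase of the box C/D particle, its scaffold protein Nop58 (0.28), Eif5a (0.24) and Npm1 (0.19), the histone and ribosome chaperone nucleophosmin. Of these 9, only Odc1, Nop16 and Pno1 passed without each library in turn; the adjusted p without library 4 was 0.0516 for Gar1, 0.118 for Fbl, 0.184 for Nop58, 0.185 for Nip7, 0.0521 for Eif5a and 0.197 for Npm1. Without library 1, Nop58 (0.0694) and Nip7 (0.0752) were lost as well, as they were without library 2 (0.143 and 0.0679), and Npm1 without library 3 (0.0581). Without the cells that held cycling UMIs, 1 of 28 genes tested passed, Odc1 (0.94), against 4.71% of all genes.

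The Xcl1 gate had 4 of 30 genes higher than the Ifng gate, against 2.51% of all genes higher, 2.91% lower and 5.43% in either direction, and all 30 log2 fold changes were above 0, with a median of 0.15 beside 0.00 over all genes. Nolc1 had 57.5, 60.8, 63.4 and 61.6 CPM in the Xcl1 gate, against 48.6, 44.5, 47.8 and 53.2 CPM in the Ifng gate, 0.32 ± 0.06 (edgeR adjusted p 0.0029). Nop10 was higher by 0.26 ± 0.05 (0.0007), Fbl by 0.24 ± 0.06 (0.0198) and Eif5a by 0.18 ± 0.05 (0.0467). Nolc1 and Nop10 passed without each library in turn. The Fbl call was lost without library 2 (0.0982), library 3 (0.128) and library 4 (0.106), and the Eif5a call without library 1 (0.180), library 2 (0.166) and library 3 (0.146).

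The Foxp3 gate had 2 genes higher than the Ifng gate, Odc1 (0.63) and Pes1 (0.34), against 30.8% of all genes called in either direction, 16.7% higher and 14.1% lower. The Il2 gate had 3, Rrs1 (0.58), Nop10 (0.23) and Fbl (0.26), against 10.8% of all genes in either direction, 4.87% higher and 5.96% lower. Rrs1 had 25.2, 31.4, 31.2 and 25.9 CPM in the Il2 gate, against 22.0, 18.8, 20.1 and 15.1 CPM in the Ifng gate, with no overlap and an edgeR adjusted p of 0.0136. Without library 2 that p was 0.0656, without library 3 0.0925 and without library 4 0.0763; Fbl was lost without library 2 (0.0673), library 3 (0.125) or library 4 (0.0829), and Nop10 without library 4 (0.0701).

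Depth, the number of UMIs per cell, was examined because the gates differed in it. RNA content and capture efficiency both bear on it and cannot be told apart here. Within the rest, the summed level of the 30 genes was 3089 ± 340 CPM in cells of 1000 to 2000 UMIs, 3570 ± 295 from 2000, 3777 ± 297 from 3000, 3826 ± 396 from 4000 and 4306 ± 212 from 6000 UMIs (SD, n = 4 libraries). The share of cycling cells went up along the same classes, 3.52%, 5.75%, 9.01%, 15.4% and 54.3%. In rest cells without a cycling UMI the sums were 3075, 3534, 3900, 3833 and 4258 CPM, the last from 99 cells, as few as 15 in 1 library. The part of cycling in the rise cannot be told apart from depth in the deepest class.

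In cells of at least 6000 UMIs compared with those of 2000 to 3000, 16 of 30 genes were higher in 4 of 4 libraries, against 18.6% of all genes, and 2 were lower in 4 of 4 (Nop10 and Wdr43), against 28.7%. The median log2 ratio of the 30 was 0.39 with a pseudocount of 1 CPM, beside -0.12 over all genes. Srm averaged 40.2 CPM in cells of at least 6000 UMIs and 14.7 CPM in those of 2000 to 3000, Npm1 895 and 645 CPM, and Fbl 143 and 95.4 CPM. Odc1 averaged 566 and 549 CPM, higher in 2 of 4 libraries, and Gnl3, the nucleolar GTPase nucleostemin, 40.4 and 53.7 CPM, higher in 1. In cells without a cycling UMI the same comparison gave 5 genes higher in 4 of 4 libraries, against 4.86% of all genes, and 1 lower, against 15.9%. The median log2 ratio of the 30 was 0.33 there, beside -0.15 over all genes.

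**Figure D3:**
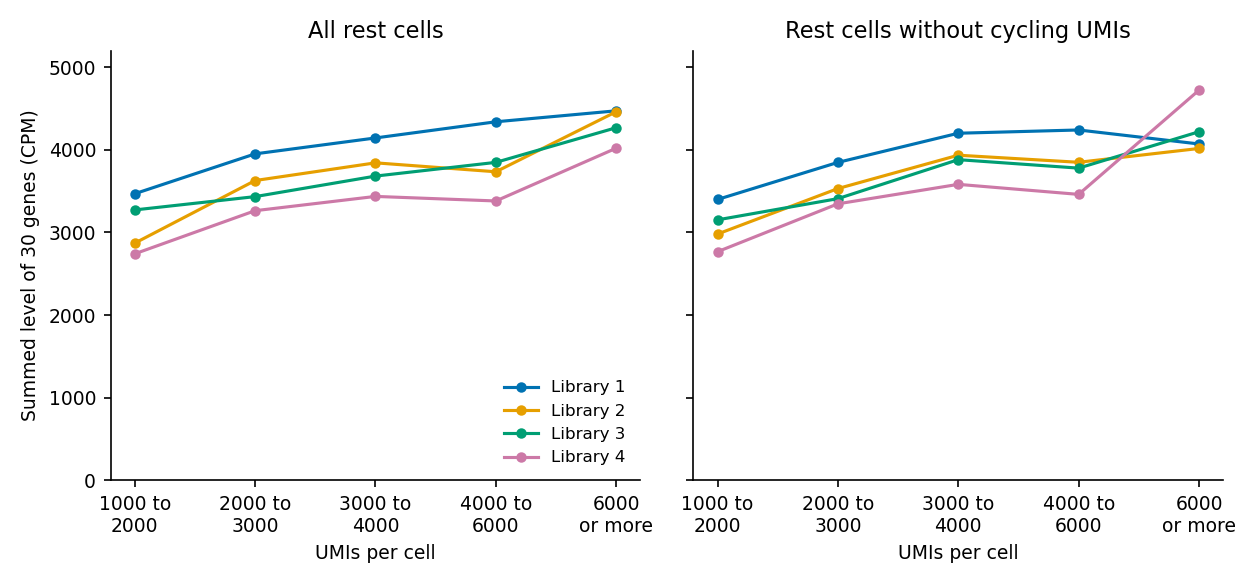
Summed level of the 30 genes in CPM (vertical axis) by UMIs per cell (horizontal axis, 5 classes) in the rest, with 1 line per library; left, all rest cells, right, rest cells without cycling UMIs. In the left panel the mean of 4306 CPM at 6000 UMIs or more stands above the 3089 CPM of the shallowest class, and each library is higher at the deep end than at the shallow end.

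Each gate was then compared again with rest cells drawn to the same depths in the same library. In the Foxp3 gate 29 genes could be tested, and 12 were lower and 1 higher, against 14.2% of all genes lower and 15.4% higher (29.6% in either direction). The median was -0.30, beside 0.00 over all genes, and by library, with a pseudocount of 1 CPM, it was -0.36, -0.17, -0.29 and -0.33. Odc1 was the higher one (0.56). At matched depth Gar1 had 22.0, 26.1, 28.9 and 34.8 CPM in the Foxp3 gate, against 41.0, 42.8, 38.0 and 50.5 CPM in the rest, with no overlap, a log2 fold change of -0.63 ± 0.13 (edgeR adjusted p 0.0008). Nhp2, which binds the same particle, had 55.7, 64.5, 46.1 and 52.5 CPM, against 82.4, 84.3, 70.2 and 73.0 CPM in the rest, -0.49 ± 0.09 (edgeR adjusted p 0.0005), also with no overlap.

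The other genes lower in the Foxp3 gate at matched depth were Nle1 (-0.73), Srm (-0.59), Pno1 (-0.51), Dkc1 (-0.40), the pseudouridine synthase of the H/ACA particle, Nop58 (-0.36), Fbl (-0.32), Nop56 (-0.31), Nop10 (-0.19), Eif5a (-0.18) and Npm1 (-0.14). All 4 members of the H/ACA particle and all 3 of the C/D particle were among the 12. Matching on depth left the sides unequal in cycling: the 15 cell cycle genes summed to 548 CPM in the Foxp3 gate and 1289 CPM in the rest. Plasma cell markers summed to 273 CPM in the Foxp3 gate and 1087 CPM in the rest, where 1 library reached 3568 CPM. Matching was repeated with only cells without a cycling UMI on both sides, a smaller set. There 24 genes could be tested and 3 passed, against 16.1% of all genes. These were Odc1 (0.39), Pno1 (-0.90) and Npm1 (-0.29), and the median was -0.23. Gar1 was at -0.08 ± 0.28 (edgeR adjusted p 0.903) in those cells and Nhp2 at -0.43 ± 0.20 (0.176). Plasma cell markers then summed to 95.5 CPM in the Foxp3 gate and 100.3 CPM in the rest.

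In the Il17a gate at matched depth 25 genes could be tested, and Odc1 was the 1 that passed, against 3.53% of all genes (2.40% higher, 1.13% lower). It had 1370, 957, 865 and 729 CPM in the Il17a gate, against 861, 567, 478 and 487 CPM in the rest, 0.69 ± 0.07, higher in 4 of 4 libraries. Nop16 was at 0.54 and not called, and the median was -0.08. On these matched sides plasma cell markers summed to 96.1 CPM in the Il17a gate and 1974 CPM in the rest (98.4 to 3725 over libraries). B cell markers summed to 4.84 CPM in the Il17a gate and 29.8 CPM in the rest. The part of these transcripts in the results was not tested. In the Xcl1 gate 3 of 30 passed, against 19.8% of all genes (8.90% higher, 10.9% lower): Nop10 was higher (0.17), and Npm1 (-0.18) and Odc1 (-0.11) were lower. In the Ifng gate 4 of 30 were lower, against 4.19% of all genes lower, 3.18% higher and 7.38% in either direction: Dkc1 (-0.30), Odc1 (-0.18), Eif5a (-0.14) and Npm1 (-0.10). In the Il2 gate 1 of 28 passed, Odc1 (-0.29), against 3.33% of all genes (0.722% higher, 2.61% lower).

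Cells with a Myc UMI were then set against cells without one. A Myc UMI was found in 2664 of 21501 cells, between 9.56% of the rest and 17.1% of the Foxp3 gate on average, and 2574 of them were paired with as many cells without a Myc UMI of the same library, gate and depth. Cells without a Myc UMI include cells that express Myc below detection, and free Myc RNA could not be measured from these matrices. Of the 30 genes 13 were higher and 0 lower in Myc UMI cells, against 0.875% of all 9833 genes tested higher and 0.844% lower (1.72% in either direction). The log2 fold change was above 0 for 29 of 30, with a median of 0.30 beside 0.00 over all genes. Their summed level was 4400 ± 66.1 CPM in Myc UMI cells and 3826 ± 263 CPM in cells without a Myc UMI (SD, n = 4 libraries), with no overlap between the libraries.

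By library, Gnl3 had 56.1, 60.0, 62.8 and 53.0 CPM in Myc UMI cells, against 38.3, 34.2, 36.6 and 39.1 CPM in cells without one. Srm had 35.9, 38.5, 39.0 and 46.0 CPM, against 20.3, 24.2, 27.2 and 27.3 CPM. Both were higher in every Myc UMI library than in any library of the other side. Their log2 fold changes were 0.64 ± 0.08 for Gnl3 and 0.69 ± 0.09 for Srm (edgeR adjusted p 0.0013 and 0.0020). Npm1 had 808, 850, 864 and 904 CPM in Myc UMI cells, against 764, 692, 661 and 751 CPM in cells without one, 0.26 ± 0.04 (edgeR adjusted p 0.0063). Eif5a had 906, 904, 835 and 797 CPM, against 845, 764, 723 and 667 CPM, 0.20 ± 0.03 (edgeR adjusted p 0.0068). The Npm1 groups did not overlap, and the Eif5a groups did, although each library was higher on its Myc UMI side.

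Nop16 had 23.0, 29.7, 41.2 and 32.4 CPM in Myc UMI cells, against 18.3, 20.0, 23.5 and 20.9 CPM in cells without one, 0.60 ± 0.11 (edgeR adjusted p 0.0117), with library 1 overlapping. Rrs1 had 29.2, 28.5, 35.9 and 27.3 CPM, against 21.7, 19.4, 22.8 and 20.9 CPM, 0.51 ± 0.10 (0.0227). Mrto4, which holds the place of a stalk protein on the large subunit precursor, had 51.1, 55.8, 61.2 and 56.8 CPM, against 45.3, 39.7, 41.6 and 39.1 CPM, 0.44 ± 0.08 (0.0134). Neither Rrs1 nor Mrto4 overlapped between the sides. The other genes called higher were Nolc1 (0.38), Nop58 (0.34), Wdr43 (0.32), Nhp2 (0.29), Fbl (0.28) and Ncl (0.21), each with an edgeR adjusted p between 0.0097 and 0.0365.

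Odc1 stood apart from the group. It had 813, 538, 505 and 471 CPM in Myc UMI cells, against 866, 643, 490 and 465 CPM in cells without one, higher in 2 of 4 libraries, with a log2 fold change of -0.07 ± 0.05 that did not pass. Read library by library, 25 of the 30 genes were higher on the Myc UMI side in 4 of 4 libraries and 0 were lower in 4 of 4, against 9.53% and 10.6% of all genes tested. The mean log2 ratio of the summed level, Myc UMI cells over the others, was 0.21 in the Foxp3 gate, 0.22 in the Xcl1 gate, 0.18 in the Ifng gate, 0.40 in the Il2 gate and 0.19 in the rest, above 0 in 4 of 4 libraries in each. In the Il17a gate it was 0.08 from 52 Myc UMI cells, above 0 in 2 of 4. Of the 6 genes whose promoter window holds CACGTG 2 were called higher, with a median of 0.29, and of the 18 without it 7 were, with a median of 0.34.

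The calls depended on the libraries, and none passed among cells without a cycling UMI, a smaller set. Gnl3, Srm, Npm1 and Eif5a passed without each library in turn, while the count of genes called was 11 without library 1, 4 without library 2, 5 without library 3 and 7 without library 4, against 0.948%, 0.809%, 0.920% and 1.05% of all genes. Without library 2 the adjusted p was 0.0528 for Nop16, 0.0628 for Mrto4, 0.0574 for Nolc1, 0.0552 for Nop58, 0.0774 for Nhp2, 0.158 for Fbl, 0.191 for Ncl, 0.0848 for Rrs1 and 0.0545 for Wdr43. Libraries 3 and 4 were also needed for Nop16, Mrto4, Fbl, Ncl and Rrs1, library 3 for Nolc1, Nop58 and Wdr43, library 4 for Nhp2, and library 1 for Rrs1 (0.0683) and Wdr43 (0.105). Over the 4 libraries the adjusted p-values (edgeR) of the calls lost ran from 0.0506 to 0.191. Without cells that held cycling UMIs 27 genes could be tested and 0 passed in edgeR, where 0.367% of all genes passed. At an unadjusted p under 0.05, 11 were higher and 1 lower, against 3.54% and 4.33% of all genes, with a median of 0.30. The median in the main comparison was also 0.30. The parts of cycling and of the smaller number of cells in the lost calls were not tested. Without matching, 26 of 30 genes were higher and 0 lower, against 8.95% and 5.84% of all genes (14.8% in either direction). The summed level of the cell cycle genes was 802 CPM in Myc UMI cells and 1017 CPM in cells without one, and that of myeloid markers 22.2 and 40.2 CPM. DESeq2 called 3 of the 30, against 0.417% of all genes.

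**Figure D4:**
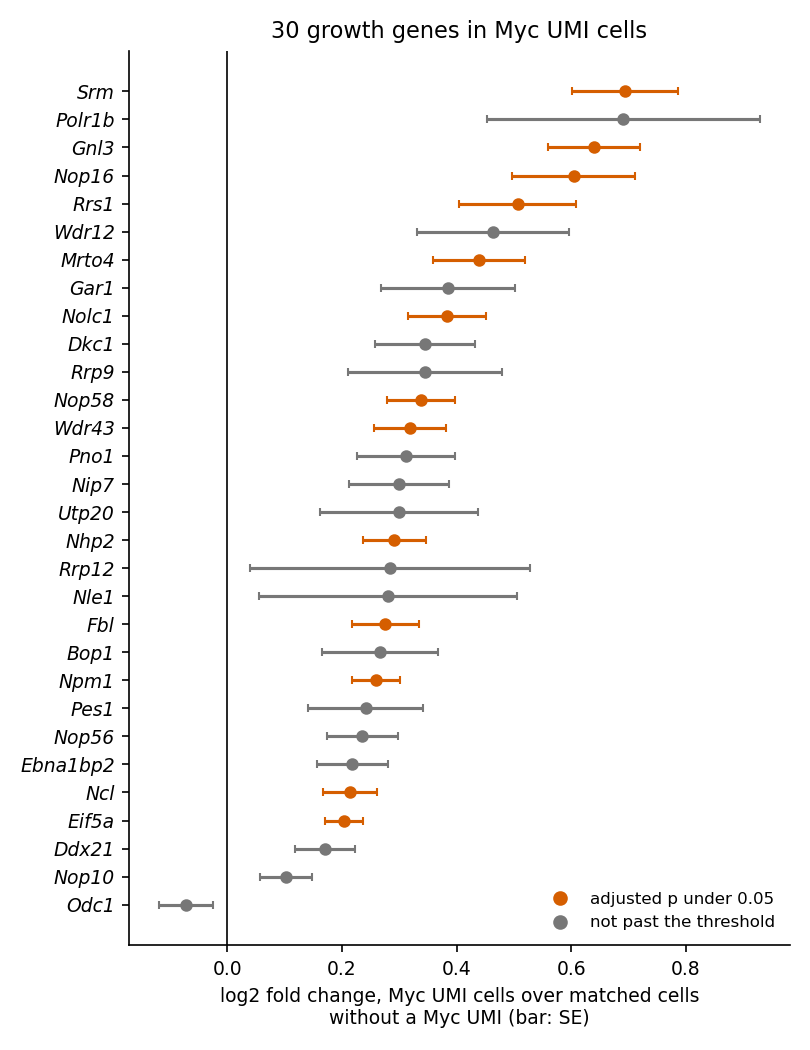
Log2 fold change (horizontal axis, bar: SE) of each of the 30 genes in Myc UMI cells over cells without a Myc UMI of the same library, gate and depth; orange points passed at adjusted p under 0.05. The points run from 0.69 for Srm to -0.07 for Odc1, with 29 of 30 right of 0.

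**Figure D5:**
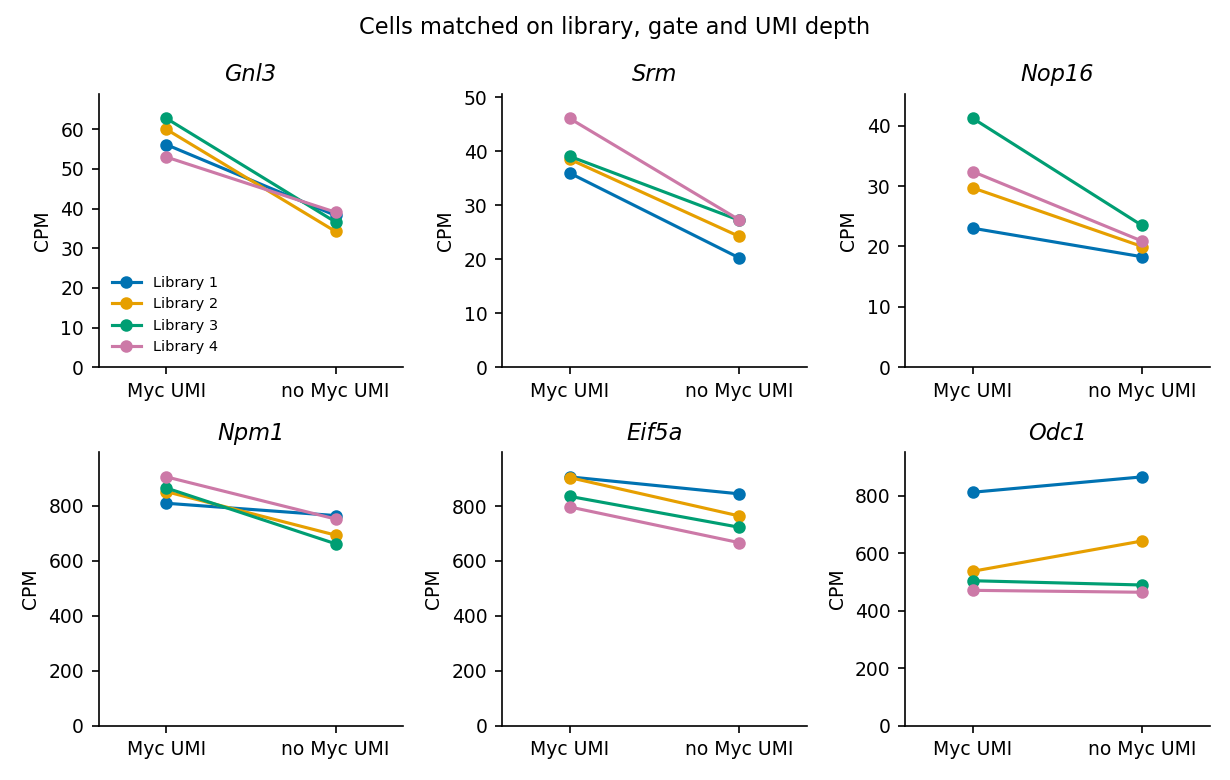
CPM of 6 genes (vertical axes) in Myc UMI cells (left of each panel) and matched cells without a Myc UMI (right), with 1 line per library. Gnl3, Srm, Nop16, Npm1 and Eif5a are higher on the Myc UMI side in 4 of 4 libraries, and Odc1 in 2 of 4.

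Cycling itself was examined in the same manner. Of 3689 cells with at least 3 cycling UMIs, 2119 were paired by library, gate and depth with cells that held none. In these 1 of 30 genes was higher and 1 lower, against 3.35% and 3.24% of all genes tested (6.59% in either direction). The median of the 30 was 0.04. The 15 cell cycle genes summed to 1178 CPM in the paired cycling cells and 2073 CPM in all cycling cells. The count therefore covers cells with lower cell cycle levels than cycling cells as a whole. Mrto4 had 43.8, 46.0, 47.0 and 43.5 CPM in cycling cells, against 35.4, 30.0, 34.9 and 33.7 CPM in cells without cycling UMIs, 0.38 ± 0.10 (edgeR adjusted p 0.0212) with no overlap; the call was lost without library 2 (0.193) and library 3 (0.068). Odc1 had 906, 500, 490 and 414 CPM, against 915, 684, 553 and 489 CPM, -0.26 ± 0.05 (edgeR adjusted p 0.0002), lower in 4 of 4 libraries.

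Without matching, 23 of the 30 genes were higher in cycling cells and 0 lower, against 23.5% and 22.7% of all genes, with a median of 0.42. Cycling cells then had a median of 5785 UMIs and cells without cycling UMIs 3487, so that depth and cycling cannot be told apart in that count.

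The genes that work beside these 30 were read from lists of other pathway members. In Myc UMI cells 2 of 39 other large subunit factors were higher, Gtpbp4 (0.37) and Rrp1b (0.33), with a list median of 0.17. The 35 other small subunit factors had a median of 0.14, the 17 nucleotide synthesis genes 0.15, the 13 genes of the RNA polymerase I machinery 0.08 and the 13 other polyamine genes -0.05. Slc7a5, a carrier of large amino acids, was higher by 0.60 and the initiation factor gene Eif1a by 0.35, while Mxi1, which competes with Myc for its partner, was lower by -0.84. Of 11 genes induced by the T cell receptor 6 were higher, with a median of 0.41. Over all genes tested 0.875% were higher in that comparison and 0.844% lower.

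In the Il17a gate 6 of 7 measured subunits of the cytosolic chaperonin, which folds actin and tubulin, were higher than in the rest, among them Cct5 (0.41) and Cct3 (0.41). Of 17 nucleotide synthesis genes 4 were higher, among them Ctps (0.93) and Paics (0.48), and of 16 initiation factor genes 7 were higher and 2 lower. Beyond the 3 polyamine genes, Oaz1 (0.39), whose product antizyme marks ornithine decarboxylase for destruction, Azin1 (0.31), which blocks antizyme, and Sms (0.23), spermine synthase, were higher, 3 of 13 tested. The share of all genes higher in that comparison was 13.4%, and the 15 cell cycle genes were all higher.

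In the Foxp3 gate 2 of those 13 polyamine genes were higher than in the rest, Oaz2 (0.91) and Sat1 (0.39), which acetylates spermidine, and 3 were lower, among them Slc3a2 (-0.35). Small subunit factors had 6 of 35 lower, among them Bysl (-0.67), Emg1 (-0.35) and Wdr36 (-0.35), and large subunit factors 4 of 39, against 13.9% of all genes lower. Of 10 genes of the Myc network 4 were higher, among them Mxi1 (1.5), Myc (0.90) and Mxd1 (0.67), and 1 was lower. Over all genes tested 16.0% were higher in the Foxp3 gate, so that 2 of 13 polyamine genes is near the share of all genes. In the Xcl1 gate Myc was higher by 0.57 and in the Il2 gate by 0.71. Myc averaged 27.6 CPM (18.6 to 42.0 over libraries) in the Il17a gate, the lowest mean of the 6 groups. The rest averaged 39.1 CPM of Myc (36.5 to 40.7). The polyamine genes Smox (-1.13), Amd1 (-0.29) and Azin1 (-0.20) were lower in the Xcl1 gate, where 6.62% of all genes tested were lower. They are named singly and are not a count of their list.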

How the data were processed

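Sorted CD4 T cells were measured in 4 libraries. Each deposited matrix holds whole UMI counts by gene and barcode. The submitters' processing notes name Cell Ranger 3.0.2 and the build mm10; the annotation and any use of strand in counting are not given in the sources used here. An antisense gene overlaps 11 of the 30 genes (among them Gnl3, Nop56, Dkc1, Nhp2, Pno1 and Wdr43). Whether reads of both genes were told apart is therefore not known. Ncl, Gnl3, Nop56 and Nop58 overlap other annotated genes on the same strand, among them Snora75 in Ncl and Snord57 in Nop56. No column was left without a sample.

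Barcodes with at least 500 genes, 1000 UMIs and at most 10% mitochondrial UMIs were kept. Scrublet (scanpy 1.11.5, Python 3.11.15) scored doublets, and the top 0.8% per 1000 barcodes were removed (1033), which left 21501 cells. The lowest deposited barcode held 502 UMIs, so free RNA was not measured. Counts were summed per library and gate. edgeR 4.0.16 (limma 3.58.1, R 4.3.3) fitted quasi-likelihood models with TMM scaling, its filterByExpr filter and library as a block to 24 sums with 15 residual degrees of freedom, or to 8 sums with 3 in the Myc and cycling comparisons. P-values were adjusted by Benjamini-Hochberg over all genes tested, at a threshold of 0.05. The library pairs the sums because each gate is drawn from the cells of that library. Depth was matched in bins of 0.1 log2 UMIs. P-values measure the spread between libraries, which may be technical. On counts simulated for the Xcl1 gate against the rest (10224 genes), edgeR recovered 97.0% of 1.5-fold and 100% of 2-fold changes, with 6 false calls. The changed genes were not low in the smallest sum, and the spread was set in advance. Recovery of low genes, of changes in the smaller gates and in the fits to 8 sums was not covered. Alternatives included DESeq2 1.42.0, library size alone, no filter, no block, 1 library left out, and other cell filters and draws. Depth matching in cells without a cycling UMI and 1 more matched draw were added after the data were seen. So were 3 cells without a Myc UMI for each with one, and comparisons without matching.

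The members, the other lists and the tests were chosen with earlier results of these data known. Values by library follow the 2 members of each role with the smallest adjusted p between the Xcl1 gate and the rest (1 for RNA polymerase I); other members, Odc1, Gnl3 and Npm1 among them, were named after their values were seen. Of the other lists, up to 3 genes with the smallest adjusted p were named. Cct6a is not analysed here.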

Additional observations from a re-analysis of the deposited data

Results flagged for a closer look

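In 5 of 112 groups of 4 libraries 1 library lay far from the other 3, and chance alone does so in about 1 group in 20. Nop10 was at 338 CPM in 1 library of the Il2 gate, against 289 to 296 CPM in the other 3. Fbl was at 95.3 CPM in 1 library of the Foxp3 gate, against 110 to 112 CPM. Rrp9 was at 15.0 CPM in 1 library of the Il17a gate, against 21.6 to 22.0 CPM, and at 34.2 CPM in 1 library of the Il2 gate, against 17.3 to 19.1 CPM. Ddx21 was at 89.5 CPM in 1 library of cells without a Myc UMI, against 96.6 to 97.3 CPM.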

How the results depend on the processing

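The count of the 30 genes called depended on cell choice and on the library block more than on scaling. Of 49 called gene values 16 passed without each library in turn, 12 changed sign in some setting, and 1 passed in every setting, Odc1 in the Il17a gate against the Ifng gate. The cause was not tested. Each count below is followed in brackets by the share of all genes tested that passed in the same setting. Cells without other cell markers held a UMI of Cd3d, Cd3e or Cd3g and fewer than 2 UMIs over the B cell and myeloid markers. Plasma cell and epithelial markers were not part of that rule. In the Foxp3 gate against the rest the count was 7; it was 2 with no replicate block (22.3%), 11 in cells of 3000 to 6000 UMIs (29.4%), 4 with gates of at least 2 UMIs (26.1%), 4 without cycling UMIs (21.5%), 13 at matched depth (29.6%), 12 in another draw (28.6%) and 3 at matched depth without cycling UMIs (16.1%). In the Xcl1 gate the count of 2 became 0 with no replicate block (5.3%) and 1 with gates of at least 2 UMIs (11.5%); it was 3 at matched depth without cycling UMIs (10.8%), Nop10 higher and Npm1 (-0.28) and Odc1 (-0.35) lower. In the Il17a gate the count of 6 became 3 with no filter (13.2%), 2 with no replicate block (19.0%), 1 in cells of 3000 to 6000 UMIs (4.7%), 3 with gates of at least 2 UMIs (20.5%), 3 in cells without other cell markers (22.3%), and 1 without cycling UMIs (3.32%), at matched depth (3.53%), in another draw (3.75%) and at matched depth without cycling UMIs (1.56%). In the Ifng gate the count of 0 became 2 with no filter (4.81%), 4 at matched depth (7.38%), 3 in another draw (7.92%) and 1 without cycling UMIs at matched depth (4.83%). In the Il2 gate the count of 1 became 2 with no filter (3.96%), 0 with no replicate block (1.25%), 2 in cells of 3000 to 6000 UMIs (3.61%), 0 with gates of at least 2 UMIs (1.38%), 2 in another matched draw (4.59%) and 2 at matched depth without cycling UMIs (2.56%).

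Against the Ifng gate, the Foxp3 gate had 2, which became 4 with library size alone (32.1%), 1 with no replicate block (24.6%), 4 in cells of 3000 to 6000 UMIs (29.2%), 5 with gates of at least 2 UMIs (26%), 5 at matched depth (28.1%), 6 in another draw (28.3%) and 1 at matched depth without cycling UMIs (18.8%). The Xcl1 gate had 4, which became 1 with no replicate block (1.18%), 2 in cells of 3000 to 6000 UMIs (4.74%), 0 without cycling UMIs (1.66%) and 1 with matched depth as well (2.01%). The Il17a gate had 9, which became 1 in cells of 3000 to 6000 UMIs (6.44%), without cycling UMIs (4.71%), at matched depth (6.99%), in another draw (7.02%) and at matched depth without cycling UMIs (3.82%). The Il2 gate had 3, which became 1 in cells of 3000 to 6000 UMIs (7.34%), with gates of at least 2 UMIs (5.66%) and without cycling UMIs (4.08%), and 0 with matched depth as well (4.42%). The Myc count of 13 became 3 with DESeq2 (0.417%), 1 with no replicate block (0.061%), 0 without cycling UMIs (0.367%) and 26 without matching (14.8%). The cycling count of 2 became 1 with DESeq2 (2.72%), 0 with no replicate block (1.89%), 1 in cells without other cell markers (6.6%) and 23 without matching (46.2%). Without 1 library the counts ran from 2 to 7 (Foxp3), 0 to 2 (Xcl1), 2 to 6 (Il17a), 0 to 0 (Ifng) and 0 to 3 (Il2) against the rest, 2 to 3 (Foxp3), 2 to 3 (Xcl1), 4 to 9 (Il17a) and 0 to 3 (Il2) against the Ifng gate, 4 to 11 for Myc and 1 to 2 for cycling. In cells of 3000 to 6000 UMIs the summed level was 3607 CPM in the Foxp3 gate, 3777 in the Xcl1 gate, 3931 in the Il17a gate, 3575 in the Ifng gate, 3572 in the Il2 gate and 3804 in the rest.

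Signs turned in these cases. In the Foxp3 gate against the rest, Rrs1 was 0.16 without cycling UMIs and Pes1 -0.15 at matched depth without them. In the Il17a gate against the rest, Gar1 was -0.19 without cycling UMIs, -0.24 at matched depth and -0.41 in another draw; Nip7 was -0.055 in cells of 3000 to 6000 UMIs and -0.0059 in another draw; Nop16 was -0.77 without cycling UMIs; Pno1 was -0.17 in cells of 3000 to 6000 UMIs, -0.60 without cycling UMIs, -0.077 at matched depth and -0.025 in another draw. Against the Ifng gate, the Il17a gate had Nop58 at -0.23 in cells of 3000 to 6000 UMIs and -0.13 without cycling UMIs, Nip7 at -0.027 in the first, Pno1 at -0.26 and Nop16 at -0.41 without cycling UMIs, Eif5a at -0.073, -0.18 and, at matched depth without cycling UMIs, -0.21, and Fbl at -0.25 in that last setting. The Il17a gate held 527 cells, so its low genes rest on few UMIs.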

Other observations

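In the Il2 gate 11 of the 15 cell cycle genes were lower than in the rest, with a list median of -1.03, against 2.90% of all genes lower, and Myc was higher by 0.71. In the Ifng gate Mxd1, a partner of Max that opposes Myc, was higher by 0.54. Mdn1, a large subunit remodelling factor, was lower there by -0.51 and Atic, an enzyme of purine synthesis, by -0.38. Over all genes tested 2.14% were higher and 3.52% lower in the Ifng gate. In the Foxp3 gate Eif4ebp1, an inhibitor of translation initiation, was higher than in the rest by 1.03. Slc2a3, a glucose carrier, was higher by 0.93 and Tfrc, the transferrin receptor, by 0.53, where 16.0% of all genes tested were higher. The genes named for the Ifng and Foxp3 gates are single genes and not a count of their lists.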
